A study of Mus musculus with 6 samples.

Results

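The genes followed here through c-Kit-enriched bone marrow are linked to myeloid-derived suppressor cells (MDSCs). They were chosen by symbol, 10 of the 32285 genes measured, and 9 are described: Il1b, Tgfb1, Cd84, Jaml, Cd14, Clec4e, Cd101, Cd274 and Ptgs2. Each symbol matched 1 gene. Single-cell RNA-seq was done on marrow of female BALB/c mice that were 10 weeks old at harvest. Non-tumor-bearing (NTB) mice had no tumor and no treatment. Vehicle mice carried orthotopic 4T1 tumors, a mouse mammary carcinoma line, and were injected intraperitoneally with DPBS each day for 2 weeks from the first measurable tumor. BRQ mice carried the same tumors and were given brequinar, an inhibitor of the pyrimidine synthesis enzyme DHODH, at 10 mg/kg on the same schedule. Each of 3 pools held 1 mouse of each group, told apart by hashtag antibodies, so that every group had 3 mice, numbered below by pool (NTB 1, vehicle 1 and BRQ 1 shared a pool).

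MDSCs are immature neutrophil-like and monocyte-like cells that accumulate during tumor growth and restrain T cells. Among the means ascribed to them are prostaglandin synthesis, TGF-beta, the checkpoint ligand PD-L1 and inflammatory cytokines. No function was measured here, so the genes are described as transcripts in named cell classes, and no cell is called an MDSC. Neutrophils leave the marrow only after passing through stages in which granule genes are made first and genes of the mature cell later.

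Cells were grouped by clustering without the 10 genes, and clusters were named from fixed marker lists. Neutrophil-like cells numbered 91, 386 and 871 in NTB mice 1 to 3. The vehicle mice had 417, 125 and 458 and the BRQ mice 446, 308 and 424. Monocyte-like cells numbered 38 to 356 per mouse. Progenitor-like cells, which joined the granulocyte-monocyte progenitor (GMP)-like and the stem and multipotent progenitor (HSC/MPP)-like clusters, numbered 137 to 1459 per mouse. All 14 neutrophil markers, all 11 monocyte markers, all 6 GMP markers and all 10 HSC/MPP markers had UMIs in their own class. They had UMIs in the other tested classes too, so their presence does not set the classes apart. Kit, the gene of the protein used for enrichment, had a median of 231 unscaled CPM (UMIs per 1000000 UMIs of a mouse's class) in HSC/MPP-like, 87.9 in GMP-like, 77.8 in monocyte-like and 20.5 in neutrophil-like cells, so the suspension held cells beyond the labelled progenitors. Hashtag calling left 57.9% of neutrophil-like, 26.9% of monocyte-like and 34.4% of progenitor-like barcodes without a mouse. Pairs of pools shared 38 to 48 barcode sequences. A p-value here sets a group difference against the variation between mice, and a class sum cannot tell fewer cells of one stage from less RNA per cell.

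Il1b, Jaml, Clec4e and Cd101 had their highest class median in neutrophil-like cells, as did Ptgs2. Il1b, which encodes the inflammatory cytokine IL-1 beta, had a median of 257 unscaled CPM in neutrophil-like cells (9 mice, 12.7 to 1086), against 26.4 in macrophage-like cells (3 mice), 2.19 in monocyte-like cells and 1.45 in GMP-like cells (9 mice each). Cd101, which encodes a surface protein of mature neutrophils, stood at 25.6 unscaled CPM in neutrophil-like cells and at 1.09 or less in every other class with at least 3 mice. The neutrophil-like range of Il1b overlapped with those of macrophage-like, megakaryocyte-like, monocyte-like and basophil, mast and eosinophil-like cells, since the lowest neutrophil-like value, of NTB 3, lay below the highest values of these classes.

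Cd84, Cd14, Tgfb1 and Cd274 had their highest medians elsewhere. Cd84, a self-binding receptor of the SLAM family, had medians of 178 unscaled CPM in macrophage-like cells (3 mice), 157 in neutrophil-like, 77.4 in basophil, mast and eosinophil-like, 59.5 in megakaryocyte-like, 44.8 in HSC/MPP-like, 28.0 in monocyte-like and 24.8 in GMP-like cells. The first 3 of these ranges overlapped one another, and those of monocyte-like and GMP-like cells overlapped too. Cd14, the co-receptor for bacterial lipopolysaccharide, was at 26.9 unscaled CPM in macrophage-like, 20.3 in neutrophil-like and 15.1 in monocyte-like cells, with overlapping ranges. Tgfb1, the gene of the cytokine TGF-beta 1, was at 499 unscaled CPM in megakaryocyte-like cells, 257 in monocyte-like cells, 213 in HSC/MPP-like cells, 196 in GMP-like cells and 81.7 in neutrophil-like cells. Its 4 megakaryocyte-like values (455 to 537) overlapped with the macrophage-like range alone. Cd274, which encodes PD-L1, was at 14.9 unscaled CPM in HSC/MPP-like (10.9 to 18.5 over 8 mice), 4.05 in GMP-like (1.58 to 5.02 over 9 mice), 2.70 in neutrophil-like and 2.19 in monocyte-like cells. The HSC/MPP-like and GMP-like ranges of Cd274 did not overlap, a description over cells of the same mice.

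**Figure D1:**
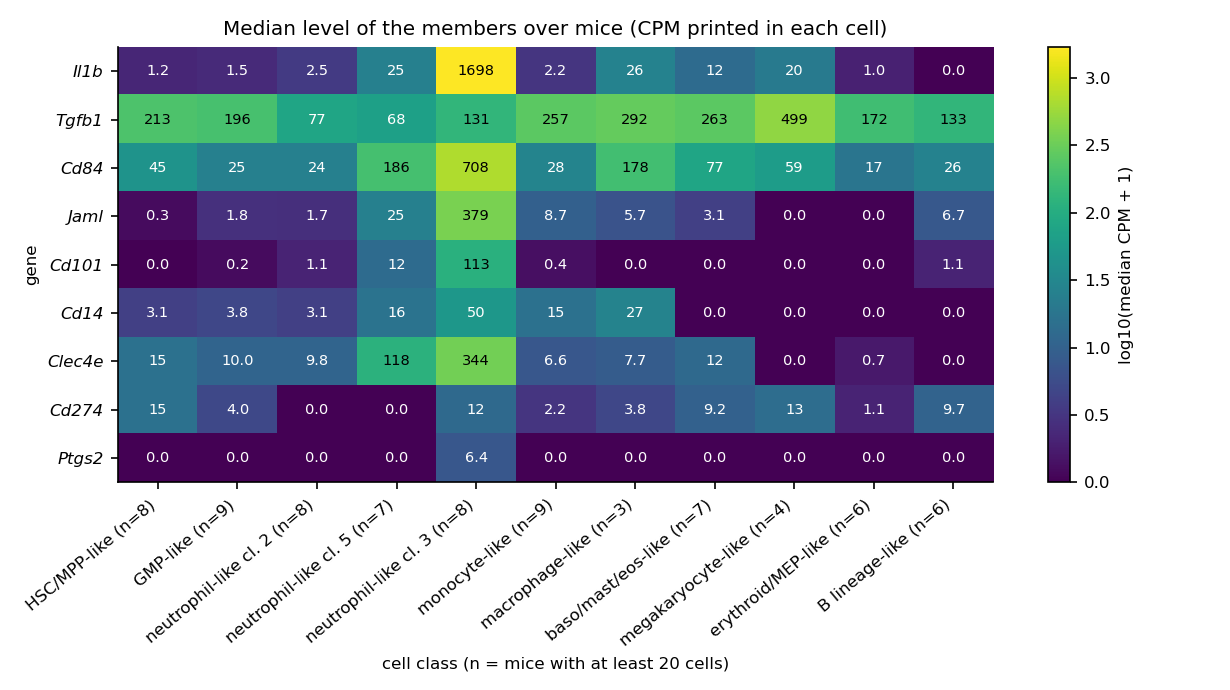
Median level of each gene over mice (unscaled CPM, printed in each tile and coloured as log10 of the median plus 1) by cell class, with the neutrophil-like class split into its 3 clusters and n the number of mice with at least 20 cells. The Il1b tile of neutrophil-like cluster 3, at 1698, stands apart from 2.53 in cluster 2, and Tgfb1 is above 0 in every column.

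The neutrophil-like class held 3 clusters that differed in these genes, although the genes had no part in making them. Cluster 2 was led by Chil3 and the granule genes Ltf and Camp (median 7293 UMIs per barcode) and cluster 5 by Mmp8, Stfa3 and Mmp9 (3602 UMIs). Cluster 3 was led by Wfdc17, Steap4 and Igfbp6 (1395 UMIs), and Cxcr2 was the 1 neutrophil marker among its 10 leading genes. From cluster 2 to cluster 5 to cluster 3, median unscaled CPM went from 2.53 to 24.9 to 1698 for Il1b, from 24.4 to 186 to 708 for Cd84 and from 1.69 to 24.9 to 379 for Jaml, an adhesion receptor of leukocytes that cross epithelia. For Clec4e, the gene of the pattern receptor Mincle, the medians were 9.84, 118 and 344. For Cd101 they were 1.09, 12.3 and 113, and for Cd14 3.10, 15.9 and 49.9. The ranges over mice of clusters 5 and 3 did not overlap for Il1b, Cd84, Jaml and Cd101, and did for Clec4e and Cd14.

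Cluster 3 held 37.4% of the neutrophil-like cells. It gave 96.1% of the class's Il1b UMIs, 95.7% of Ptgs2, 86.6% of Jaml, 85.2% of Cd274, 74.6% of Cd101, 65.7% of Cd84, 56.7% of Clec4e and 51.0% of Cd14. Of Tgfb1, 17.1% of the UMIs came from cluster 3 and 66.3% from the deeper cells of cluster 2, while its median levels were 77.4, 67.6 and 131 unscaled CPM in clusters 2, 5 and 3, and the cluster 2 and cluster 3 ranges overlapped. Il1b averaged 2.70 UMIs per cell in cluster 3, 0.140 in cluster 5 and 0.0158 in cluster 2. Ptgs2, the gene of the inducible cyclooxygenase COX-2, and Cd274 stayed low even there, at medians of 6.44 and 11.7 unscaled CPM in cluster 3 and 0 in clusters 2 and 5.

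In 4T1-bearing vehicle mice the neutrophil-like sums of 6 of the 7 genes that could be tested were higher than in NTB mice, while edgeR's quasi-likelihood test with Benjamini-Hochberg adjustment called 28.6% of all genes in either direction. Il1b stood at 37.9, 45.6 and 12.5 CPM (after TMM scaling, as in all that follows unless called unscaled) in NTB mice 1 to 3 and at 455, 1024 and 938 CPM in vehicle mice. No NTB mouse reached a vehicle mouse, a lack of overlap seen in 47.1% of all genes tested. The fold change was 4.76 on the log2 scale (SE 0.48, adjusted p = 1.8e-05). Cd84 was at 34.3, 53.2 and 38.6 CPM in NTB and 241, 482 and 474 CPM in vehicle mice, again without overlap. It rose by 3.19 on the log2 scale (SE 0.34, adjusted p = 2.6e-05).

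The other receptors rose too. Jaml rose from 14.4 ± 10.2 to 165 ± 55.7 CPM (SD, n = 3), a log2 fold change of 3.95 (SE 0.44, adjusted p = 3.4e-05). Clec4e was at 23.5, 22.6 and 15.2 CPM in NTB and at 145, 212 and 194 CPM in vehicle mice, with a log2 fold change of 3.23 (SE 0.32, adjusted p = 1.7e-05). Cd101 rose from 4.45 ± 1.20 to 50.4 ± 17.4 CPM (log2 fold change 3.48, SE 0.40, adjusted p = 4.3e-05). In none of these 3 genes did the groups overlap. Cd14 rose from 4.14 ± 0.656 to 27.6 ± 5.38 CPM (log2 fold change 2.65, SE 0.39, adjusted p = 0.000257), also without overlap. The NTB sums held 3, 7 and 27 UMIs of Cd101 and 2, 11 and 22 of Cd14. No NTB mouse reached the limit of the filter on low counts for these genes, which passed it through the tumor-bearing mice.

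Tgfb1 was the tested gene that was not called, at 121, 76.2 and 92.7 CPM in NTB and 81.4, 94.4 and 100.3 CPM in vehicle mice (log2 fold change -0.04, SE 0.20, adjusted p = 0.914). Cd274 and Ptgs2 did not pass the filter on low counts. Cd274 had 0, 1 and 2 UMIs in the NTB sums, 4, 2 and 3 in the vehicle sums and 7, 2 and 6 in the BRQ sums. Ptgs2 had 0, 2 and 0 UMIs in the NTB sums, 11, 1 and 2 in those of vehicle mice and 2, 1 and 4 in those of BRQ mice. A count of 0 allows up to 4.88 unscaled CPM in the smallest of these sums, that of NTB 1. Without the filter both were called higher in vehicle than in NTB mice, from these counts.

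**Figure D2:**
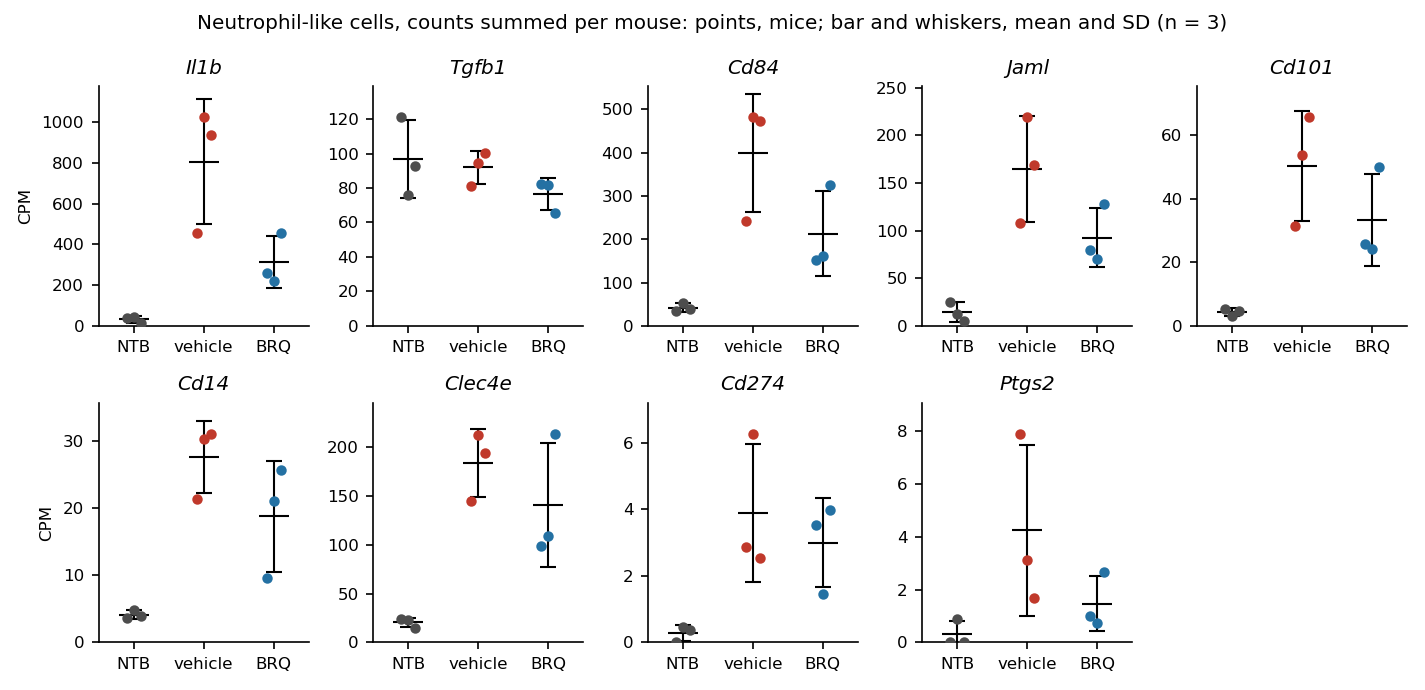
Level of each gene in the neutrophil-like cells of each mouse (CPM after TMM scaling, linear axes from 0), with points for the 3 mice of a group and the bar and whiskers for mean and SD. Vehicle points lie above all NTB points for Il1b, Cd84, Jaml, Cd101, Cd14 and Clec4e, BRQ points lie between or among them apart from Clec4e in BRQ 3, which at 213 CPM is just above the highest vehicle point, and Tgfb1 overlaps in all groups.

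These class values join different clusters, since cluster 2 held 67.9% to 74.7% of the neutrophil-like cells of NTB mice and cluster 3 held 63.3% to 83.6% of those of vehicle mice. Cluster 3 held 6.59%, 8.29% and 3.67% of the neutrophil-like cells of NTB mice 1 to 3, 63.3%, 82.4% and 83.6% in vehicle mice and 40.4%, 31.8% and 51.9% in BRQ mice. These shares are a description, because genes that define the clusters differed between the groups too. Markers of other cell types moved with the groups as well. Of the macrophage markers, all 7 had UMIs in neutrophil-like cells, Slc40a1 the most, none was at 0, and their sum ranged over 97.4 to 135 unscaled CPM in NTB, 267 to 453 in vehicle and 185 to 339 in BRQ mice. All 10 basophil, mast and eosinophil markers had UMIs there, Hdc the most, and summed to 109 to 141 unscaled CPM in NTB, 281 to 478 in vehicle and 243 to 433 in BRQ mice. All 6 GMP markers did too, Prtn3 the most, with 1418 to 1713, 2350 to 2851 and 2005 to 2696 unscaled CPM. The 11 monocyte markers, Lyz2 the most, went the other way, with 9082 to 9426, 3066 to 6467 and 5479 to 8838 unscaled CPM. Of the 6 T and NK markers 3 had UMIs (Trbc2, Ncr1 and Gzma were at 0), Cd3d the most, with 87.9 to 135 in NTB, 77.9 to 103 in vehicle and 156 to 199 unscaled CPM in BRQ mice. The median depth of a neutrophil-like cell was 5541 to 6310 UMIs in NTB, 1552 to 1885 in vehicle and 2594 to 3333 in BRQ mice. The part of these markers and of depth in the class results was not tested.

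Within cluster 3 alone, no member was called between vehicle and NTB mice. This fit had 8 mice, as NTB 1 had only 6 cells there and was dropped, and was added after seeing the data, as were those in clusters 2 and 5. edgeR called 0 of 7 members (1 at unadjusted p under 0.05), against 0.411% of all genes tested there. DESeq2 was not run within clusters. Il1b was at 2112 and 1149 unscaled CPM in cluster 3 cells of NTB mice 2 and 3 and at 1548, 1754 and 1643 in those of vehicle mice, so that the groups overlapped. Its log2 fold change was 0.04 (SE 0.20) there, against 4.76 over the class. For Cd84 the value was 0.24 (SE 0.19), for Clec4e 0.49 (SE 0.29), for Cd14 0.28 (SE 0.78), for Cd101 -0.0034 (SE 0.47) and for Jaml -0.31 (SE 0.28). Tgfb1 stood at -1.12 (SE 0.41, adjusted p = 0.238). BRQ mice gave 0 of 7 members called against vehicle mice (1 unadjusted) and 0 of 7 against NTB mice (2 unadjusted) in cluster 3, with 0.293% of all genes called in each comparison.

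In cluster 5 some members were called. With 7 mice (NTB 1 and vehicle 2, with 17 and 10 cells, were dropped), Clec4e rose by 1.12 (SE 0.28, adjusted p = 0.0142) and Jaml by 2.78 (SE 0.76, adjusted p = 0.031) on the log2 scale in vehicle against NTB mice. Jaml rested on 3 and 1 UMIs in NTB mice 2 and 3 and on 8 and 5 in vehicle mice 1 and 3, while the dropped NTB 1 had 1 UMI (16.7 unscaled CPM) and the dropped vehicle 2 had 0. That was 2 of 7 members, against 3.85% of all genes. Between BRQ and vehicle mice cluster 5 gave 0 of 7 members and 0.347% of all genes. Before adjustment 2 passed, Il1b (log2 fold change 1.02) and Cd84 (0.56), both higher in BRQ mice. Between BRQ and NTB mice 4 of 7 members were called, against 7.77% of all genes. They were Il1b (log2 fold change 2.77, SE 0.51), Jaml (3.55, SE 0.55), Clec4e (1.49, SE 0.22) and Cd84 (0.70, SE 0.20). Il1b rested there on 1 and 7 UMIs in NTB mice 2 and 3 and on 18, 16 and 64 in BRQ mice, while NTB 1, dropped from the fit, had 5 UMIs (83.4 unscaled CPM). In cluster 2, where vehicle 2 was dropped with 12 cells, 3 members had enough counts. None of these 3 was called between vehicle and NTB mice (0 unadjusted, 1.54% of all genes) or between BRQ and vehicle mice (1 unadjusted, 0.11% of all genes), and Clec4e alone was called between BRQ and NTB mice (log2 fold change 1.26, adjusted p = 0.0243, 5.88% of all genes).

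**Figure D3:**
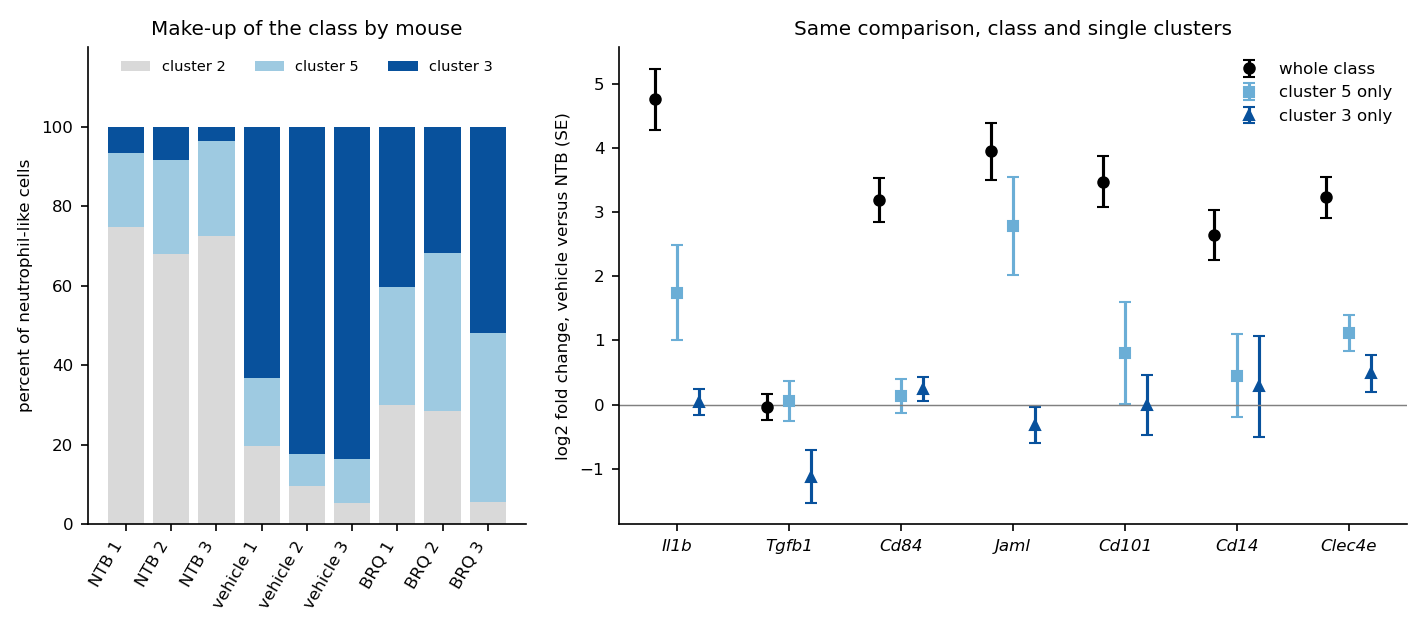
Left, percent of each mouse's neutrophil-like cells in clusters 2, 5 and 3. Right, log2 fold change with SE for vehicle against NTB mice in the whole class, in cluster 5 alone and in cluster 3 alone, where the Il1b symbol drops from 4.76 to 0.04.

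The share of neutrophil-like cells with an Il1b UMI was higher in vehicle than in NTB mice too. Each cell was thinned to 2000 UMIs and shallower cells were left out, which kept 84, 343 and 802 neutrophil-like cells of NTB mice, 197, 40 and 176 of vehicle mice and 264, 209 and 278 of BRQ mice, so that most of the shallow cluster 3 cells were lost. Il1b was found in 1.19%, 1.46% and 1.37% of the kept cells in NTB mice, in 12.7%, 35.0% and 39.2% in vehicle mice and in 4.92%, 7.66% and 29.9% in BRQ mice. B lineage-like and erythroid-like cells, which should lack Il1b, had a median share of 0% at the same depth. Vehicle mice averaged 29.0% and NTB mice 1.34%, a difference of 27.6 percentage points (two-sided exact permutation test, p = 0.1, the smallest that 3 against 3 mice allow). Without thinning the difference was 54.1 points, and thinned to 1000 UMIs, chosen after seeing the data, 45.9 points.

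BRQ-treated mice had neutrophil-like levels of 5 members below those of the vehicle mouse of the same pool in 3 of 3 pools (Il1b, Cd84, Jaml, Cd101 and Cd14), as had 20% of all genes tested, and none was called. Within cluster 5 all 5 had log2 fold changes above 0 (0.23 to 1.02), and within cluster 3 Il1b (0.10), Jaml (0.43) and Cd101 (0.39) did, none called. edgeR called 0 of 7 members (3 at unadjusted p under 0.05), against 0.0634% of all genes, and DESeq2 called 0 of the 5 with an adjusted p (3 unadjusted). With the pool as a block edgeR called 0 of 7 too (5 unadjusted). Il1b was at 259, 219.7 and 458 CPM in BRQ mice, which overlapped with the 455 CPM of vehicle 1 through BRQ 3 alone. Its log2 fold change was -1.36 (SE 0.40, adjusted p = 0.217). Cd84 was at 153, 161 and 326 CPM in BRQ mice, with a log2 fold change of -0.89 (SE 0.31, adjusted p = 0.29). Clec4e was at 99.1, 109 and 213 CPM (log2 fold change -0.37, SE 0.27, adjusted p = 0.594), and in pool 3 its BRQ level exceeded the vehicle level.

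This outcome depended on single mice. Without BRQ 3, 5 members were called lower in BRQ than in vehicle mice (Il1b -1.72, adjusted p = 0.00266; Cd84 -1.30, adjusted p = 0.00148; Jaml, Cd101 and Clec4e), while 9.93% of all genes were called. Without vehicle 1, 2 were called (Il1b -1.64 and Cd84 -1.16), against 3.92% of all genes. Reading the study's limits of 500 and 7500 as UMIs instead of genes gave 2 calls (Il1b and Cd84; 4.13% of all genes), and leaving out the filter on low counts gave 3 (Il1b, Cd84 and Jaml; 1.81% of all genes).

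Against NTB mice, the neutrophil-like cells of BRQ mice had 6 of 7 members higher, where 15.6% of all genes were called. This comparison shares the NTB mice with the first. Il1b was higher by 3.40 (SE 0.46, adjusted p = 0.000274), Jaml by 3.18 (SE 0.44, adjusted p = 0.000307) and Cd101 by 2.91 (SE 0.39, adjusted p = 0.000274) on the log2 scale. Clec4e was higher by 2.87 (SE 0.31, adjusted p = 0.000127), Cd84 by 2.31 (SE 0.33, adjusted p = 0.000423) and Cd14 by 2.11 (SE 0.38, adjusted p = 0.00188), and in all 6 the groups did not overlap, as in 38.9% of all genes tested. Tgfb1 was at 82.4, 81.7 and 65.7 CPM in BRQ mice (log2 fold change -0.29, SE 0.19, adjusted p = 0.32).

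Promoters are shown for 4 genes whose neutrophil-like sums rose together. RefSeq start sites (GRCm38.p6) were found for 8 of the 9 genes, not for Cd14, and the 250 bases before the start were read 5′ to 3′ on the strand of the gene. Capitals mark matches on either strand to the C/EBP letters TTNNGCAA, the PU.1 letters GAGGAA, the AP-1 letters TGANTCA or the TATA box TATAAA, which did not overlap one another here.
Il1b (chr2:129371140-129371389, minus strand): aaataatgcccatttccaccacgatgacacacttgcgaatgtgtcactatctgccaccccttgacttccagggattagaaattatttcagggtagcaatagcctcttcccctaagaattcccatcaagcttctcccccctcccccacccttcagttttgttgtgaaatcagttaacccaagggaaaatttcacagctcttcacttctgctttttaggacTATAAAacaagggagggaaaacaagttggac
Clec4e (chr6:123289872-123290121, minus strand): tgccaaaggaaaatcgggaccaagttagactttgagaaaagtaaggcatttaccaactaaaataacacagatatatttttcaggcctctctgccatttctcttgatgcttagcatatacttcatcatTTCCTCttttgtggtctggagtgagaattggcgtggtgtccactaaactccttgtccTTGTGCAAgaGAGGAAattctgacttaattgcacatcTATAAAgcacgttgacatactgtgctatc
Cd101 (chr3:101029554-101029803, minus strand): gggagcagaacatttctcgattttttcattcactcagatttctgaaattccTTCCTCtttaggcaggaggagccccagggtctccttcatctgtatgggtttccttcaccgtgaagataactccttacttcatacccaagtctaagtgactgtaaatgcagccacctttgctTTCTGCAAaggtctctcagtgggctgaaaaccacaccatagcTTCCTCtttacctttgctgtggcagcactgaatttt
Cd84 (chr1:171839447-171839696, plus strand): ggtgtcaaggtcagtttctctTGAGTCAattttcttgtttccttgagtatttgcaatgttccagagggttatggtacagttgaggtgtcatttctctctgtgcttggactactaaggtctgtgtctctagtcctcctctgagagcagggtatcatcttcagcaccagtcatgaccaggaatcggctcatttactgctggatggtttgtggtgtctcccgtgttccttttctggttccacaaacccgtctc
The Clec4e window held the C/EBP letters 66 to 59 bases before the start, PU.1 letters at 123 to 118 and at 56 to 51 and a TATA box at 29 to 24. Cd101 held C/EBP letters at 78 to 71 and PU.1 letters at 199 to 194 and 36 to 31, Il1b a TATA box at 31 to 26, and Cd84 AP-1 letters at 229 to 223. Of all 32851 promoters of that length, 9.56% held the C/EBP letters, 23.2% the PU.1 letters, 6.75% the AP-1 letters and 12.4% the TATA box. Among the 8 member promoters the counts were 3, 3, 1 and 3. The NF-kB motif was in 3.9% of all promoters and in 0 of the 8. These are matches of letters only.

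The genes lie apart from one another on GRCm38 (GENCODE M21). Ptgs2 (ENSMUSG00000032487, chr1:150100031-150108227) and Cd84 (ENSMUSG00000038147, chr1:171839697-171890718) share chromosome 1. Il1b (ENSMUSG00000027398) spans chr2:129364570-129371139, Cd101 (ENSMUSG00000086564) chr3:100993529-101029556 and Clec4e (ENSMUSG00000030142) chr6:123281789-123289870. Tgfb1 (ENSMUSG00000002603) spans chr7:25687002-25705077, Jaml (ENSMUSG00000048534) chr9:45079183-45108534 and Cd274 (ENSMUSG00000016496) chr19:29367455-29388095.

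In progenitor-like cells the direction of Cd84 was the opposite of that in the neutrophil-like class sums. The 3 comparisons were run over 7 members, as Cd101 and Ptgs2 had too few counts. Cd84 was at 33.8, 34.9 and 33.5 CPM in NTB mice, at 17.3, 19.9 and 16.6 CPM in vehicle mice and at 25.9, 26.9 and 23.6 CPM in BRQ mice. The 3 groups did not overlap, with BRQ mice between the others. Of all genes, 45.0% did not overlap between vehicle and NTB mice, 31.4% between BRQ and vehicle mice and 35.9% between BRQ and NTB mice. Cd84 fell by 0.97 on the log2 scale in vehicle against NTB mice (SE 0.11, adjusted p = 3.1e-06), was higher by 0.55 in BRQ against vehicle mice (SE 0.10, adjusted p = 0.000944) and lower in BRQ against NTB mice (log2 fold change -0.42, SE 0.09, adjusted p = 0.00478). These values read the study's limits of 500 and 7500, which it gives in transcripts, as genes, and read as UMIs the change in vehicle against NTB mice was -0.04 and not called. Thinned to 2000 UMIs, Cd84 was found in 3.25% to 8.54% of progenitor-like cells per mouse, and B lineage-like and erythroid-like cells gave medians of 5.53% and 5.64%, so that detection per cell was at the level of those classes. Unthinned, the group means were 28.8% in NTB mice, 22.4% in vehicle mice and 29.1% in BRQ mice.

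Between vehicle and NTB mice 3 of the 7 members were called in progenitor-like cells, against 33.2% of all genes. Besides Cd84 these were Clec4e and Tgfb1. Clec4e was at 4.53, 8.78 and 8.30 CPM in NTB mice, 10.7, 12.8 and 11.2 CPM in vehicle mice and 13.8, 12.9 and 17.2 CPM in BRQ mice. It rose by 0.53 in vehicle against NTB mice (SE 0.19, adjusted p = 0.041), a call that was lost without NTB 1, NTB 3 or any 1 of the 3 vehicle mice (adjusted p 0.0549 to 0.101) and under DESeq2 (adjusted p = 0.0551). Tgfb1 rose from 160, 187 and 184 CPM to 205, 228 and 221 CPM without overlap (log2 fold change 0.29, SE 0.08, adjusted p = 0.00808), but was not called in GMP-like cells alone (0.19, adjusted p = 0.0903).

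In progenitor-like cells of BRQ against vehicle mice Cd84 alone was called, 1 of 7 members against 12.0% of all genes. Clec4e missed the threshold (log2 fold change 0.40, SE 0.15, adjusted p = 0.0854), and with the pool as a block it was called (0.38, adjusted p = 0.0419). Tgfb1 was at 194, 197 and 193 CPM in BRQ mice, below all vehicle mice (log2 fold change -0.16, SE 0.07, adjusted p = 0.189). Between BRQ and NTB mice 2 of 7 were called, against 19.3% of all genes, namely Cd84 and Clec4e (log2 fold change 0.93, SE 0.18, adjusted p = 0.00149). Cd274 was at 3.71, 6.93 and 5.01 CPM in NTB, 4.42, 4.26 and 4.26 CPM in vehicle and 5.58, 5.79 and 5.48 CPM in BRQ mice and was not called in any of the 3 comparisons. Cd14, Il1b and Jaml were not called either, with group means of 3.01 to 4.78, 1.12 to 1.70 and 1.17 to 2.07 CPM. Reading the limits as UMIs, which kept 20 to 244 progenitor-like cells per mouse, left no member called in any of the 3 comparisons (Cd84 -0.04 in vehicle against NTB, -0.0077 in BRQ against vehicle and -0.05 in BRQ against NTB mice).

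The make-up of the progenitor-like class differed between groups. HSC/MPP-like cells were 22.6% to 27.7% of it in NTB, 7.30% to 14.8% in vehicle and 13.9% to 16.3% in BRQ mice, and the 10 HSC/MPP markers, none at 0, summed to 469 to 566, 143 to 218 and 277 to 316 unscaled CPM. The 10 basophil, mast and eosinophil markers, Hdc the most, summed to 141 to 178 in NTB, 84.8 to 114 in vehicle and 192 to 196 in BRQ mice. The 11 monocyte markers, Lyz2 the most, summed to 171 to 195, 110 to 140 and 176 to 231, and the 9 erythroid markers, Car2 the most, to 92.3 to 97.9, 19.4 to 38.9 and 34.7 to 47.2 unscaled CPM. None of these markers was at 0, and their part in the Cd84 values was not tested. Within GMP-like clusters alone, Cd84 ranged over 29.6 to 32.3 unscaled CPM in NTB, 13.4 to 14.8 in vehicle and 24.7 to 25.9 in BRQ mice. Its log2 fold changes there were -1.10 (adjusted p = 3.68e-06), 0.67 (adjusted p = 0.000173) and -0.44 (adjusted p = 0.00907) in the same order of comparisons, as large as in the joined class. In cells chosen by their Ms4a3 level, as the study chose GMPs, they were -1.09 (adjusted p = 0.000307), 0.71 (adjusted p = 0.000765) and -0.37 (adjusted p = 0.168), so that the call between BRQ and NTB mice was lost. Clec4e rose in all 3 comparisons of GMP-like cells, by 0.78 (adjusted p = 0.0148), 0.47 (adjusted p = 0.0405) and 1.25 (adjusted p = 0.000664), but in Ms4a3-selected cells the BRQ against vehicle value was not called (0.47, adjusted p = 0.0576). Of all genes, 22.9%, 13.6% and 10.6% were called in the GMP-like clusters, and 2 members in each comparison.

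Neutrophil markers had UMIs in progenitor-like cells. All 14 were found there, S100a9 the most, with sums of 16481 to 19017 unscaled CPM in NTB, 19454 to 20021 in vehicle and 13101 to 18191 in BRQ mice. Their part in the progenitor-like values was not tested. At 2000 UMIs the median share of progenitor-like cells with Clec4e was 2.68%, and in B lineage-like and erythroid-like cells it was 0%.

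Monocyte-like cells gave 1 call in each of 2 comparisons and none in the other. In these cells the 6 GMP markers, Prtn3 the most, summed to 15332 to 21086 unscaled CPM in NTB, 16165 to 19811 in vehicle and 19560 to 21842 in BRQ mice. The 11 monocyte markers, F13a1 the most, summed to 1434 to 2234, 1360 to 1665 and 1654 to 1925. The class thus held GMP transcripts as well as monocyte ones, and their part in its values was not tested. Of 5 members tested, 0 were called between vehicle and NTB mice by edgeR (2 at unadjusted p under 0.05) and 0 of 1 with an adjusted p by DESeq2, against 4.04% of all genes. Cd84 was at 36.2, 30.2 and 26.5 CPM in NTB, 16.3, 28.7 and 20.1 CPM in vehicle and 27.2, 36.7 and 30.3 CPM in BRQ mice. NTB and vehicle mice overlapped (log2 fold change -0.65, SE 0.21, adjusted p = 0.0765). With mice assigned by the ratio of hashtag counts, Cd84 was called lower in vehicle mice (-0.97, adjusted p = 0.0043).

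Between BRQ and vehicle mice Cd84 was 1 of 5 members called (5.63% of all genes), higher by 0.71 on the log2 scale (SE 0.17, adjusted p = 0.00927). The 10 HSC/MPP markers, none at 0 and Cd34 the most, summed in monocyte-like cells to 180 to 241 unscaled CPM in NTB, 164 to 198 in vehicle and 241 to 248 in BRQ mice, and their part in this result was not tested. The Cd84 levels of the groups overlapped, and the call was lost without vehicle 1 (0.46, adjusted p = 0.294), without BRQ 2 (0.59, adjusted p = 0.0532) and under DESeq2 (adjusted p = 0.052). Between BRQ and NTB mice Clec4e was 1 of 5 called (3.23% of all genes). It was at 3.02, 3.49 and 3.23 CPM in NTB, from 2, 6 and 5 UMIs, and at 7.55, 10.7 and 12.3 CPM in BRQ mice, with vehicle mice at 6.93, 6.24 and 8.16 CPM. Its log2 fold change was 1.63 (SE 0.37, adjusted p = 0.010), and the call was lost without NTB 2, NTB 3 or BRQ 3 (adjusted p 0.0505 to 0.0971). In the same cells the 10 basophil, mast and eosinophil markers, none at 0 and Hdc the most, summed to 49.9 to 69.4 unscaled CPM in NTB, 44.9 to 101.1 in vehicle and 81.3 to 95.9 in BRQ mice. The 6 dendritic markers, none at 0 and Clec9a the most, summed to 2.83 to 8.98, 0 to 2.74 and 2.17 to 2.44, and the part of both lists was not tested.

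No other member was called in monocyte-like cells. Tgfb1 was at 246 to 278 CPM over all 9 mice, with log2 fold changes of 0.03, 0.02 and 0.05. Cd14 was at 11.0 to 19.2 CPM and Jaml at 6.24 to 18.8 CPM, neither called. Cd274 had 0, 5 and 2 UMIs in the NTB sums, 12, 0 and 3 in those of vehicle mice and 20, 15 and 23 in those of BRQ mice. Ptgs2 had 0 UMIs in all 9 mice, which allows up to 0.432 unscaled CPM in the deepest sum and 4.25 in the shallowest. Il1b and Cd101 had too few UMIs to be tested.

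**Figure D4:**
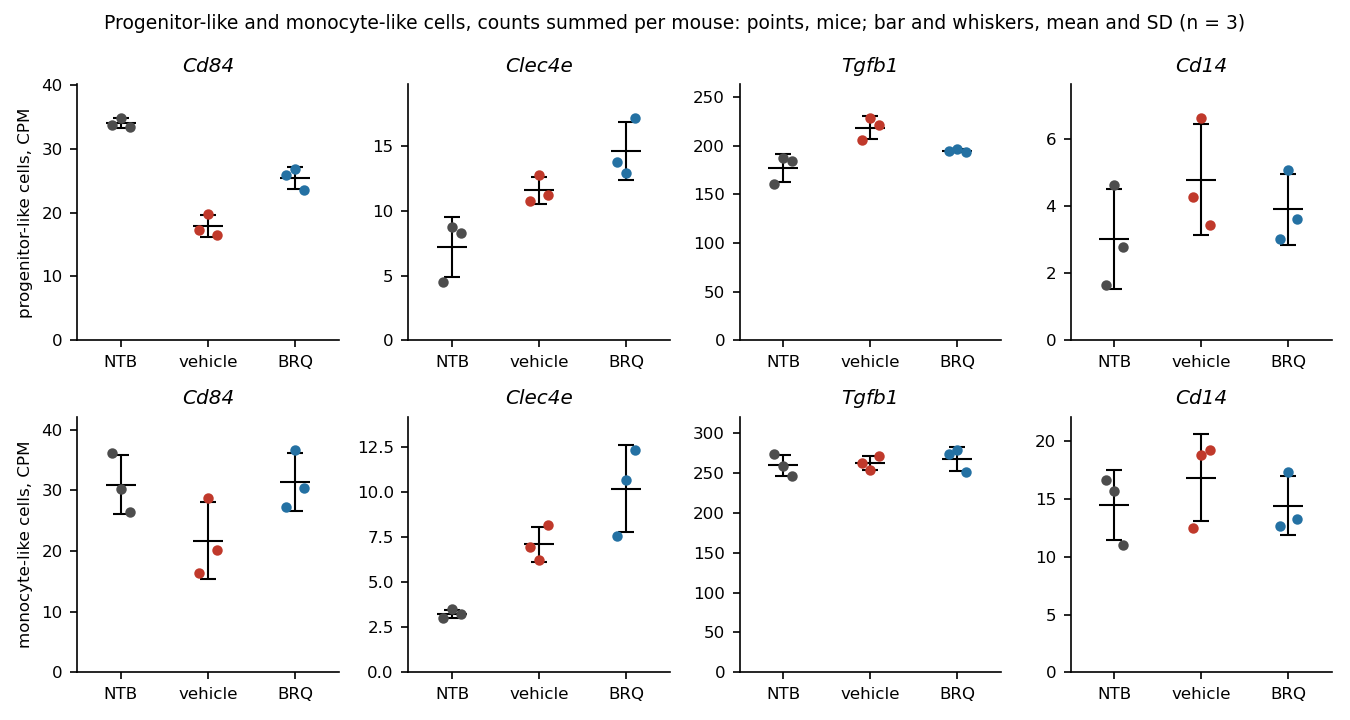
Levels of Cd84, Clec4e, Tgfb1 and Cd14 in progenitor-like (top) and monocyte-like (bottom) cells of each mouse (CPM after TMM scaling, linear axes from 0; points, mice; bar and whiskers, mean and SD). In progenitor-like cells the Cd84 points of vehicle mice (16.6 to 19.9) lie below those of BRQ mice (23.6 to 26.9) and of NTB mice (33.5 to 34.9).

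A test of the difference between neutrophil-like and progenitor-like log2 fold changes was run over 8 members. It compares class sums, and the neutrophil-like sums join clusters whose shares differed between the groups. Within clusters 2, 3 and 5 Cd84 changed by -0.40, 0.24 and 0.14 in vehicle against NTB mice and was not called. Only Clec4e and Jaml were called within a cluster in that comparison, in cluster 5. Between vehicle and NTB mice 6 were called, where 29.7% of all genes were. The difference, neutrophil-like minus progenitor-like log2 fold change, was 4.06 for Cd84 (SE 0.32, adjusted p = 4.1e-08), 5.17 for Il1b, 4.31 for Jaml, 2.72 for Clec4e, 2.25 for Cd14 and 3.47 for Cd274. Cd274 rested on 3 UMIs in NTB neutrophil-like cells, had not passed the filter on low counts in that class and entered this test through its progenitor-like counts. Cd101 (2.46, adjusted p = 0.25) and Tgfb1 (-0.27, adjusted p = 0.347) were not called. Between BRQ and vehicle mice Cd84 was 1 of 8 members called (0.903% of all genes), with a difference of -1.37 (SE 0.29, adjusted p = 0.0299). That call was lost without any 1 of vehicle 2, vehicle 3, BRQ 1 and BRQ 2.

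Other genes of the members' pathways were taken from 9 lists written with earlier results of these data known. In neutrophil-like cells, 32 of 60 listed genes were higher and 9 lower in vehicle than in NTB mice, where 28.6% of all genes were called, 1269 higher and 987 lower. These are class sums over clusters whose shares differed between the groups, and no values within clusters are given for the lists. Wfdc17 was among the 10 leading genes of cluster 3, Retnlg of cluster 5 and Camp and Ngp of cluster 2. Of 8 genes of CD14 and Mincle signalling 7 rose and none fell (median 1.87, against -0.06 over all genes), among them Clec4d by 4.54, which encodes a Mincle-related receptor, Syk by 1.04, a kinase of that pathway, and Fcer1g by 0.71, its adaptor. Of 8 IL-1 family and early inflammatory genes 5 rose (median 1.48), with Il1r2, the decoy receptor, at 3.20 and Il1rn, the receptor antagonist, at 1.55. Of 11 other genes of suppressive cells 7 rose and 1 fell, with Wfdc17 at 5.50, Ifitm1 at 5.63 and Cybb, an oxidase subunit, at -1.07.

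The arginine list had 3 genes tested, of which Nos2, the inducible nitric oxide synthase, was called higher, at means of 0.238 CPM in NTB and 16.3 CPM in vehicle mice, and no fold is given over a group so close to 0. Among 7 prostaglandin and leukotriene genes Alox5ap rose by 1.22, while Ptgs1, the constitutive cyclooxygenase, and Ptges, a prostaglandin E synthase, had log2 fold changes of -1.09 and -1.69 and were called lower. Of 7 TGF-beta genes 3 rose and 2 fell (Tgfbr2, a receptor, 1.66; Furin, a processing protease, 1.47; Smad2, a signal transducer, -0.81). Of 4 PD-L1 partners 2 rose (Cmtm6, which stabilises PD-L1, 1.22; Irf1 1.40), and of 3 SLAM and JAML partners 1 did (Cd244a, 5.13). Genes of neutrophil maturity moved in both directions with 5 of 9 higher and 4 lower, for example Retnlg at 2.89, Camp at -1.56 and Ngp at -1.36.

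For BRQ against vehicle mice edgeR called 0 of the 60 listed genes in neutrophil-like cells (18 before adjustment at the same limit of 0.05). DESeq2 was not run on the lists. Between BRQ and NTB mice 33 were higher and 4 lower, where 15.6% of all genes were called. In progenitor-like cells 10 of 64 were higher and 9 lower in vehicle than in NTB mice, a share near the 33.2% of all genes called. Among them were the 3 arginine genes tested, all higher (Odc1, the first enzyme of polyamine synthesis, by 0.85, Ass1 by 0.53 and the arginine transporter Slc7a1 by 0.40). In BRQ against vehicle mice 4 of 64 rose there (Alox5 1.13, Il1f9 0.85, Cd244a 0.68 and Clec4d 0.55) and Ass1 fell by 0.51, a smaller share than the 12.0% of all genes called. Monocyte-like cells had 3 of 50 higher and 4 lower in vehicle than in NTB mice, 5 higher and 0 lower in BRQ than in vehicle mice and 1 higher and 2 lower in BRQ than in NTB mice, against 4.04%, 5.63% and 3.23% of all genes.

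The genes whose levels most resembled each member's were ranked by Pearson's r of log2 levels over 62 sums of 1 class in 1 mouse, a description in which sums share mice and depth. Il1b was most like Gm5150 (r = 0.880), Cstdc5 (0.873) and Stfa2l1 (0.860), and Cd101 like Stfa2l1 (0.904), Retnlg (0.892) and Gm5150 (0.887). Cd84 was most like Wipf1 (0.896), Clec4e like Csf3r (0.858), Cd14 like Mpeg1 (0.843) and Jaml like Btg1 (0.842). Tgfb1 (Zeb2, 0.816), Ptgs2 (Stfa2, 0.746) and Cd274 (Smarca2, 0.718) had lower values.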

How the data were processed

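For each pool the authors deposited 1 matrix of raw UMI counts (unique molecular identifiers, the distinct RNA or hashtag molecules of a barcode; 13750, 11441 and 14297 barcodes; 128035770, 100700982 and 135564079 UMIs), from 10x 3′ libraries; the submitters' processing notes name Cell Ranger 6.0.0, Seurat and mm10. Barcodes were kept with at most 15% mitochondrial UMIs and 500 to 7500 detected genes (limits the study gives in transcripts). Hashtags were called per pool with HTODemux (Seurat 5.3.0, quantile 0.99). Leiden clusters (scanpy 1.11.5, leidenalg 0.10.2; 2000 variable genes without the members, 30 components, 20 neighbours, resolution 0.8) numbered 22, of which 4 stayed unnamed and entered no class. The largest of the unnamed, cluster 1 (3510 barcodes), scored highest for GMP markers. Its 10 leading genes held no GMP marker but the neutrophil markers Fcnb and S100a9. Its cells are thus in neither the progenitor-like nor the neutrophil-like sums. Scrublet-marked doublets were left out in an alternative. A level was computed for classes or clusters with at least 20 cells in a mouse.

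UMIs were summed per mouse and class and tested over all 9 mice with edgeR 4.0.16 (TMM, filterByExpr, quasi-likelihood, two-sided, Benjamini-Hochberg threshold 0.05, R 4.3.3), with DESeq2 1.42.0 as an alternative. Differences between classes were tested in edgeR as a class by group interaction with mouse as a block. The code was tested on simulated data. All other members are named, with up to 3 most alike genes of each (log2(CPM + 1), mean CPM of at least 20) and up to 3 called genes of each list and comparison with the highest mean CPM. The values of 1 member and 1 listed gene are not reported here. Members and lists were chosen with earlier results of these data known. Mice of a group were separate animals. The pairing came from the shared pools, and deviations of same-pool mice had a median r of 0.053, 0.086 and 0.118 in neutrophil-like, monocyte-like and progenitor-like cells (9 pairs each), against -0.037, -0.036 and -0.056 between pools. Fits had no pool term, and a block on pool was an alternative.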

Additional observations from a re-analysis of the deposited data

Results flagged for a closer look

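The group difference of a gene differed between neutrophil-like and progenitor-like cells in 7 tested cases, by edgeR's interaction test with mouse as a block. Of all genes, 29.7% were called between vehicle and NTB mice and 0.903% between BRQ and vehicle mice. Between vehicle and NTB mice the neutrophil-like log2 fold change exceeded that of progenitor-like cells by 4.06 for Cd84, 5.17 for Il1b, 4.31 for Jaml, 2.72 for Clec4e, 2.25 for Cd14 and 3.47 for Cd274. For Cd84 the 2 effects had opposite signs, 3.19 and -0.97, though at 500 to 7500 UMIs the progenitor-like value was -0.04 and not called. The 3.19 is a value over neutrophil-like clusters whose shares differed between the groups. Within clusters 2, 3 and 5 Cd84 was at -0.40, 0.24 and 0.14, not called in any. Cd274 had 1 to 7 UMIs in the neutrophil-like sums in which it was found, too few to pass the filter there, and entered the test through its progenitor-like counts. Between BRQ and vehicle mice the Cd84 difference was -1.37, from -0.89 in neutrophil-like and 0.55 in progenitor-like cells, and was not called without vehicle 2, vehicle 3, BRQ 1 or BRQ 2, nor with the hashtag ratio to the lower quartile.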

How the results depend on the processing

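Counts of members called are given first as reported, then under each alternative that moved them by over 1.5 times; where no reason is given the cause was not tested. The settings within single clusters, the thinning to 1000 UMIs and the hashtag ratio to the lower quartile were added after seeing the data. In neutrophil-like cells, vehicle against NTB mice gave 6 calls, and 0 within cluster 2 (3 members tested), 0 within cluster 3, 2 within cluster 5 and 0 with equal cells per cluster (2 members tested). That last setting left out cluster 3, where 1 mouse had only 6 cells, and drew 12 and 10 cells of each mouse from clusters 2 and 5. BRQ against NTB mice gave 6, and 1, 0 and 0 within cluster 2, within cluster 3 and with equal cells. BRQ against vehicle mice gave 0, and 3 without a filter on low counts, 2 at 500 to 7500 UMIs and 0 to 5 with 1 mouse left out. In monocyte-like cells, vehicle against NTB mice gave 0, and 1 with either hashtag ratio. BRQ against vehicle mice gave 1, and 0 under DESeq2 and 0 to 1 with 1 mouse left out, as for BRQ against NTB mice (0 to 1). In progenitor-like cells at 500 to 7500 UMIs the 3 comparisons gave 0, 0 and 0 in place of 3, 1 and 2. BRQ against vehicle mice gave 2 with the pool as a replicate block, without a filter and in GMP-like cells alone, and BRQ against NTB mice gave 1 in Ms4a3-selected GMPs, where Cd84 was not called. The class difference of BRQ against vehicle mice gave 1, and 3 with the hashtag ratio, 0 with the lower quartile and 0 to 2 with 1 mouse left out. The Il1b share difference of 27.6 points became 45.9 thinned to 1000 UMIs and 54.1 unthinned.

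The signs of some values turned, none of them past the test's threshold once turned. The reported value had been called for 4 of these, neutrophil-like Cd84 within cluster 2 (-0.40) and Jaml (-0.31) and Cd101 (-0.0034) within cluster 3 in vehicle against NTB mice, and progenitor-like Cd84 at 500 to 7500 UMIs in BRQ against vehicle mice (-0.0077). The others had not been called. For BRQ against vehicle neutrophil-like cells, cluster 2 gave 0.78 for Cd84 and 0.48 for Clec4e. Cluster 3 gave 0.098 for Il1b, 0.43 for Jaml, 0.39 for Cd101, 0.15 for Clec4e and 0.045 for Tgfb1, and cluster 5 gave 1.02 for Il1b, 0.56 for Cd84, 0.76 for Jaml, 0.76 for Cd101, 0.37 for Clec4e and 0.23 for Cd14. Equal cells gave 0.58 for Cd84 and the hashtag ratio 0.0012 for Tgfb1. Neutrophil-like Tgfb1 turned for vehicle against NTB mice with the lower quartile (0.0016), within cluster 2 (0.23) and cluster 5 (0.055) and with 1 mouse left out (-0.21 to 0.10), and for BRQ against NTB mice within cluster 5 (0.054). In monocyte-like cells, Cd14 was -0.046 for vehicle against NTB mice with the hashtag ratio (-0.057 to 0.44 with 1 mouse left out), and for BRQ against vehicle mice 0.15 with that ratio and 0.040 with the lower quartile (-0.41 to 0.051). Tgfb1 was -0.0084 there with the ratio (-0.012 to 0.061). Other monocyte-like ranges with 1 mouse left out were -0.0016 to 0.077 for Tgfb1 in vehicle against NTB mice, -0.18 to 0.035 for Jaml in BRQ against vehicle mice, and -0.042 to 0.15 for Cd84 and -0.15 to 0.17 for Cd14 in BRQ against NTB mice. In progenitor-like cells of vehicle against NTB mice, Il1b was 0.040 with the replicate block (-0.84 to 0.31 with 1 mouse left out), and Cd274 was 0.043 at 500 to 7500 UMIs, 0.14 in GMP-like cells and 0.11 in Ms4a3-selected GMPs. For BRQ against vehicle mice, Il1b was 0.0038 in GMP-like cells (-1.03 to 0.32), Tgfb1 0.18 at 500 to 7500 UMIs and Cd14 -0.35 to 0.0065 with 1 mouse left out. For BRQ against NTB mice, Jaml was -0.14 in GMP-like cells and -0.20 in Ms4a3-selected GMPs (-0.32 to 0.59), and Cd274 -0.027 to 0.29. The class difference of BRQ against vehicle mice was 0.034 for Cd274 and 0.12 for Tgfb1 with the hashtag ratio, 0.082 for Tgfb1 with the lower quartile (-0.17 to 0.031), -0.72 to 0.0023 for Cd14 and -2.33 to 0.053 for Cd101. The Clec4e shares of BRQ against vehicle mice turned to 2.12 points in neutrophil-like cells unthinned and -0.957 points in progenitor-like cells with the hashtag ratio.

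The replicate block kept 55 of 57 member results in direction and call, turned 1 (Il1b, above) and added 1 call (progenitor-like Clec4e, BRQ against vehicle, 0.38). RLE factors, a limit of 200 genes and leaving out Scrublet-marked cells kept 57 of 57.

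Over all genes, the count of calls for BRQ against vehicle neutrophil-like cells was 5, and 52 with the block, 18 under DESeq2, 283 without a filter, 287 at 500 to 7500 UMIs, 0 with the lower quartile and 0 to 810 with 1 mouse left out. For vehicle against NTB mice it was 2256, and 36 with equal cells and as low as 1088 with 1 mouse left out. For BRQ against NTB mice it was 1232, and 1895 with the block, 2511 at 500 to 7500 UMIs and as low as 467 with 1 mouse left out. The monocyte-like counts of 382, 532 and 305 became 709 with the hashtag ratio, 853 with the block and 500 with the block. The progenitor-like counts of 3851, 1389 and 2238 became 10, 0 and 7 at 500 to 7500 UMIs, and the 1389 became 2372 with the block. The class difference of BRQ against vehicle mice was called in 93 genes, and in 142 without Scrublet-marked cells, 2 with the lower quartile and 3 to 1129 with 1 mouse left out. Depth limits Cd274 and Ptgs2, which had at most 11 UMIs in a neutrophil-like sum. The limit of 500 to 7500 UMIs was not run for monocyte-like cells, of which it kept 2 to 23 per mouse.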
